A study of Mus musculus with 6 samples.

Results

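The genes described here are 35 genes by which microglia, the resident immune cells of the brain, and their complement products are recognised. Every probe set (a group of short probes that reads 1 transcript region) annotated to exactly 1 of these symbols was taken, which gave 51 of the 45101 probe sets in the table. All 35 genes had at least 1, out of 18193 genes that the array names. The tissue was medial prefrontal cortex from both hemispheres. It came from 6 males of the 129S1/SvImJ strain, 8 to 10 weeks old, all killed 2 h after fear extinction training. Mice 1, 5 and 9 (n = 3) had a control diet, and mice 3, 7 and 11 (n = 3) had a diet labelled ZnR, which the labels call a zinc diet. No source used here gives its composition. One Affymetrix Mouse430_2 array was made per mouse. The comparison asks how these transcripts differed between ZnR and control mice. Precision is limited by the small number of arrays.

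Microglia depend on colony stimulating factor and transforming growth factor signals for survival and identity, and they sense neurons through purinergic and chemokine receptors. They make C1q, the recognition molecule of the classical complement pathway, which is assembled from A, B and C chains and is known for tagging synapses and debris for removal. TYROBP is an adaptor that carries signals from receptors such as TREM2 into the cell, and the transcription factor PU.1, encoded by Spi1, binds a purine-rich sequence near many myeloid genes.

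What the genes share beyond their choice was looked for in their promoters. RefSeq windows of assembly GRCm38.p6, from 250 bases before to 50 bases after a gene's start, matched 25 of the 35 genes. The letters GAGGAA, the core of the PU.1 box, on either strand, were in a window of 15 of these 25 genes, against 31.3% of the 27025 genes in the table, and in 55.2% of the 29 member windows against 28.3% of all 32851 windows. The longer strings GAGGAAGT and AGGAAGT, which overlap it, were in 3 and 7 of the 25, against 3.69% and 10.7% of all genes. Below are the 200 bases before the start of 2 C1q chain genes, which lie on the same chromosome and strand, and of Cd53, the member with the smallest p by diet. Matches of GAGGAA on either strand are in capitals. The longer strings are not marked where they occur. C1qb is chr4:136886201-136886400 and C1qc is chr4:136892915-136893114, both minus strand, and Cd53 is chr3:106790150-106790349, minus strand, all in GRCm38.p6.
C1qb: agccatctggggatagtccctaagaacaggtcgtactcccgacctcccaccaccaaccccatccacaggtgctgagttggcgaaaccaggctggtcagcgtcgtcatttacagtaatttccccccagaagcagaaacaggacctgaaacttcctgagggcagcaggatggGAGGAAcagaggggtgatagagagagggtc
C1qc: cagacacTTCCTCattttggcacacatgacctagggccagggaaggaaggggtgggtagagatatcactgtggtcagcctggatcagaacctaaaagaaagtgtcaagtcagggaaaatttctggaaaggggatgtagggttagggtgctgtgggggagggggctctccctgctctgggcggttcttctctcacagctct
Cd53: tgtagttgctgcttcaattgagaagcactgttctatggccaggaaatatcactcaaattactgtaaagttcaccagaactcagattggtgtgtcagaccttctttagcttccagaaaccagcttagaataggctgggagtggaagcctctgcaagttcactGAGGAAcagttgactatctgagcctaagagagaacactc
These letters describe the windows and do not show binding.

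The arrays were alike in distribution, with medians from 4.46 to 4.52, and correlated at 0.994 to 0.997. Control probe sets for 18S ribosomal RNA read low in a pair of arrays, control mouse 1 (mean 9.09) and ZnR mouse 3 (8.44), where the remaining mice read 10.9 to 12.4. This pair, called the low-18S pair here, was treated as a possible batch.

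No member probe set that was tested passed the test for a difference by diet. A probe set entered the test if 3 or more of the 6 arrays read it above a log2 value of 4. That kept 38 member probe sets for 29 genes. Of these 38, 0 passed limma at a Benjamini-Hochberg adjusted p under 0.05, where 1.47% of the 25381 probe sets kept did (0.461% higher and 1.01% lower). At an unadjusted p under 0.05 it was 3 of 38, or 7.89%, against 17% of all. The smallest adjusted p of a member was 0.221, in Cd53. All differences lay between -0.30 and 0.35 on the log2 scale. The 95% interval lay inside a 2-fold change either way for all 38, as for 96.5% of all probe sets kept, and inside 0.5 log2 units for 29 of 38, against 68.9%. These intervals bound each difference, and a p that misses the threshold does not show equal levels.

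**Figure D1:**
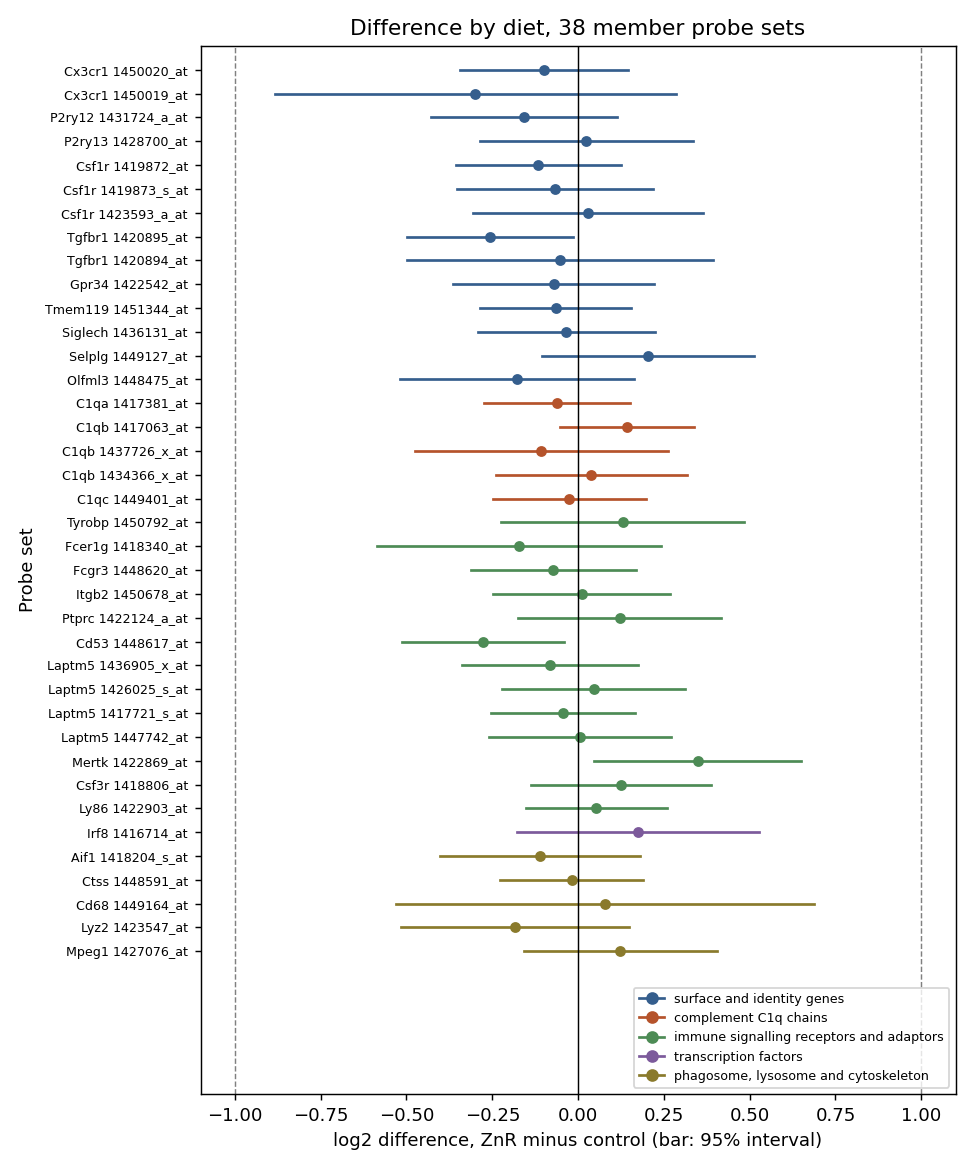
Differences by diet on the log2 scale (x axis, ZnR minus control) for the 38 member probe sets tested (y axis), with bars for the 95% intervals of limma, colours for the roles and dashed lines at a 2-fold change. No bar reaches a dashed line, and the bars of Cd53, Mertk and 1 Tgfbr1 probe set miss 0.

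The median difference of the members was -0.04, against 0.02 over all probe sets kept, and their median size without sign was 0.09, against 0.12. A size of at most 0.2 was found in 86.8% of the 38, against 70.2% of all. The ZnR and control mice did not overlap in 4 of 38 (10.5%), against 23.7% of all probe sets kept. With the level filter dropped, so that all 51 member probe sets were in the fit, none passed the threshold, the median was -0.0082 and 5 did not overlap, or 9.80% against 18.4%. The median residual SD between mice was 0.15 for the members and 0.14 for all. Of the 38, 57.9% were fitted lower in ZnR mice, against 46.4% of all. In tissue, a change in the number of microglia and a change in RNA per microglial cell cannot be told apart.

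**Figure D2:**
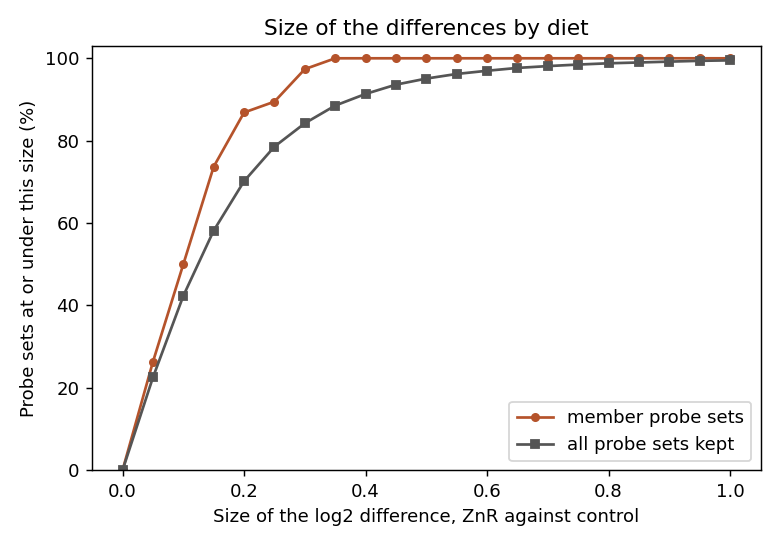
Share of probe sets (y axis, %) whose log2 difference by diet is at or under a given size (x axis, sign dropped), for the 38 member probe sets tested and for all 25381. The members' curve reaches 86.8% at 0.2 and 100% at 0.35, while the other stands at 70.2% and 88.5%.

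Of the 10 surface and identity genes tested, the diets overlapped in all but Tgfbr1, by the brightest probe set of each. Over all 11749 genes tested, the diets did not overlap in 27.7%. P2ry12, the ADP receptor that steers microglial processes, had log2 values of 8.65, 8.75 and 8.69 in control mice 1, 5 and 9 and 8.78, 8.46 and 8.39 in ZnR mice 3, 7 and 11. ZnR mouse 3 was the highest of all 6 and ZnR mice 7 and 11 the lowest, so the diets overlapped, with a log2 difference of -0.16 ± 0.12 (SE; 95% interval -0.43 to 0.11; limma adjusted p = 0.548). Csf1r, the receptor on which microglial survival depends, measured 9.46, 9.25 and 9.22 in controls and 9.26, 9.07 and 9.25 in ZnR mice with its brightest probe set 1419872_at. Control mouse 1 stood highest and the other mice overlapped. The difference was -0.12 ± 0.10 (95% interval -0.36 to 0.12; limma adjusted p = 0.628), and the other Csf1r probe sets gave -0.067 and 0.03. Tmem119, a membrane protein gene that separates microglia from blood macrophages, measured 5.44, 5.64 and 5.52 against 5.44, 5.57 and 5.39, with all 6 mice within 0.25 log2 units and a difference of -0.065 ± 0.095 (limma adjusted p = 0.781).

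Cx3cr1, the receptor for the neuronal chemokine fractalkine, is read by a pair of probe sets. With 1450020_at it measured 7.95, 7.67 and 7.68 in controls and 7.74, 7.68 and 7.58 in ZnR mice, and control mouse 1 was again the highest. The difference was -0.10 ± 0.11 (95% interval -0.35 to 0.14; limma adjusted p = 0.686), and -0.01 without control mouse 1. The dimmer 1450019_at measured 4.93, 4.46 and 4.77 in controls against 5.02, 4.08 and 4.17 in ZnR mice. Here ZnR mouse 3 was the highest of all 6 while ZnR mice 7 and 11 were the lowest, so the larger difference of -0.30 ± 0.25 had a wide 95% interval, from -0.88 to 0.29 (limma adjusted p = 0.602). Without ZnR mouse 3 that value was -0.60, with limma adjusted p = 0.18.

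Tgfbr1, the type I receptor for transforming growth factor beta, was the surface gene nearest to the threshold. Its bright probe set 1420895_at measured 9.12, 9.05 and 9.34 in controls and 8.82, 8.98 and 8.94 in ZnR mice. The 3 ZnR values lay below the 3 control values, with a difference of -0.26 ± 0.10 (95% interval -0.50 to -0.016; limma adjusted p = 0.266), so it did not pass. The dim probe set 1420894_at gave -0.052 ± 0.19, near 0. Many brain cells besides microglia carry this receptor.

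Selplg, a selectin ligand gene, measured 6.68, 6.73 and 6.84 in controls and 7.04, 6.67 and 7.14 in ZnR mice. ZnR mice 3 and 11 were the highest and ZnR mouse 7 the lowest of all 6, and the difference was 0.20 ± 0.13 (limma adjusted p = 0.492). Without ZnR mouse 7 it was 0.34, with limma adjusted p = 0.173. Olfml3, a secreted matrix protein gene, measured 5.52, 5.15 and 5.57 against 5.14, 5.46 and 5.11, with a difference of -0.18 ± 0.15 (limma adjusted p = 0.598). ZnR mouse 7 lay with the high controls and control mouse 5 with the low ZnR mice. The purinergic receptor gene P2ry13 (0.024), the lysophosphatidylserine receptor gene Gpr34 (-0.071) and the sialic acid lectin gene Siglech (-0.034) differed by less than their standard errors. Of the 14 surface and identity probe sets tested, 11 were fitted lower and 3 higher, with a median of -0.07. The mean of the 10 surface and identity genes, each centred on its mean over the 6 mice, was 0.02, 0.01 and 0.08 in control mice 1, 5 and 9 and -0.02, -0.01 and -0.08 in ZnR mice 3, 7 and 11. All ZnR mice lay below all controls, with a difference of -0.08 ± 0.03 (SE over mice). Such a separation was not particular to this role. The means of the astrocyte, excitatory neuron and striatal projection neuron genes and the ligands and partners of member receptors separated by diet too. So did those of the other microglia-enriched, oligodendrocyte precursor, endothelial and mural, and choroid plexus and ependyma genes. The means of the other complement, activated microglia, interneuron, oligodendrocyte and leptomeningeal fibroblast genes overlapped, as did those of the other member roles. Mice 1 and 3 alone gave -0.05, and the remaining 4 mice gave -0.09.

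**Figure D3:**
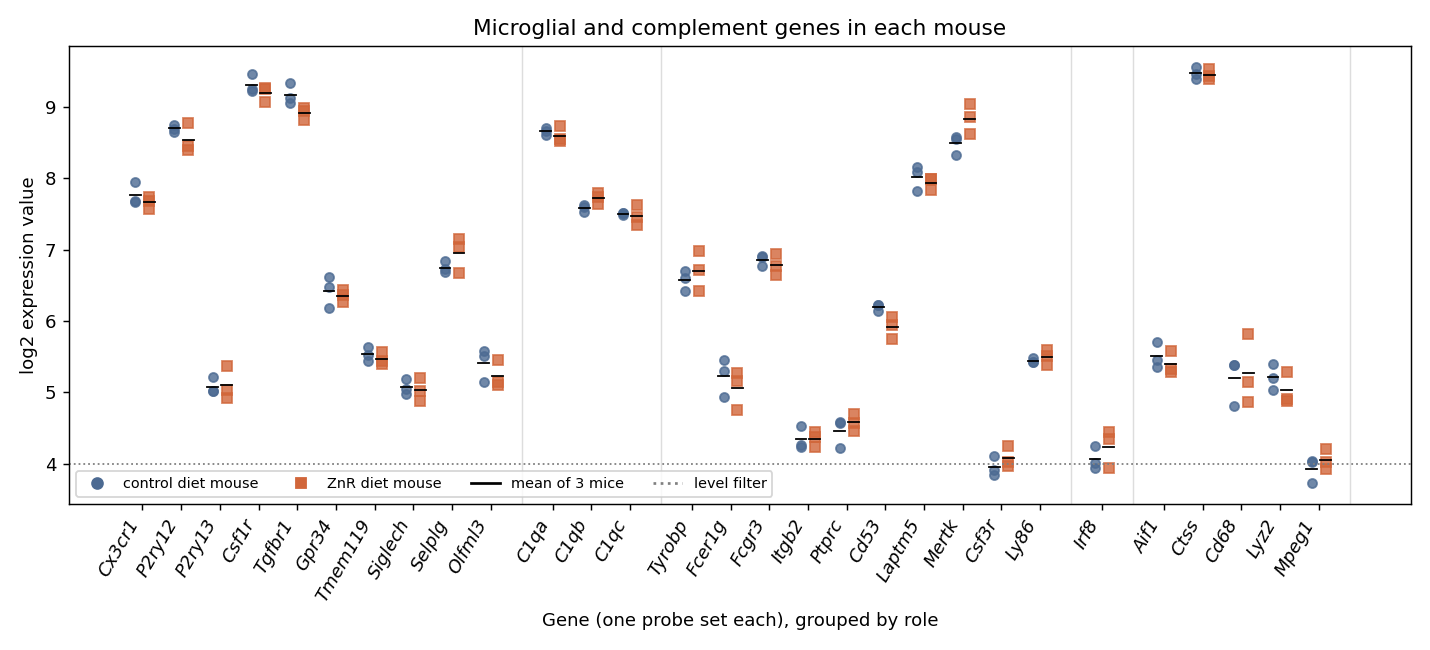
Log2 expression value (y axis) in each of the 6 mice for the brightest tested probe set of the 29 member genes (x axis, grouped by role), with circles for control mice, squares for ZnR mice, black bars for the means of 3 mice and a dotted line at the level filter. Levels of different genes cannot be compared on such arrays. Within a gene the diets overlap in all but 4 genes: Tgfbr1, C1qb, Cd53 and Mertk. That is 13.8% of the 29, against 27.7% of all 11749 genes tested.

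None of the 3 C1q chain genes passed the test. C1qa measured 8.71, 8.60 and 8.67 in controls and 8.73, 8.52 and 8.55 in ZnR mice, a range of 0.21 over all 6 mice and a difference of -0.062 ± 0.091 (95% interval -0.28 to 0.15; limma adjusted p = 0.784). C1qc measured 7.51, 7.52 and 7.48 against 7.62, 7.35 and 7.47. Its 3 controls lay within the span of the ZnR mice, and the difference was -0.025 ± 0.10 (95% interval -0.25 to 0.20; limma adjusted p = 0.931).

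C1qb is read by 3 probe sets whose differences disagreed in sign. With 1417063_at it measured 7.62, 7.59 and 7.53 in controls and 7.80, 7.74 and 7.64 in ZnR mice. All ZnR mice lay above all controls, with a difference of 0.14 ± 0.084 (95% interval -0.052 to 0.34; limma adjusted p = 0.441), which did not pass. With 1437726_x_at it measured 7.45, 7.39 and 7.54 against 7.08, 7.71 and 7.27, and with 1434366_x_at 6.71, 6.65 and 6.65 against 6.58, 6.96 and 6.59. In both of these, ZnR mouse 7 was the highest of the 6 and ZnR mice 3 and 11 the lowest, with differences of -0.11 ± 0.16 and 0.039 ± 0.12. The suffix x marks probe sets with probes that may also bind other transcripts. The mean of the 3 chains, 1 probe set each, differed by 0.02 ± 0.06 (SE over mice).

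Among immune receptors and adaptors, the largest differences were in Mertk and Cd53, in opposite directions. Mertk, a receptor kinase for the uptake of dying cells that astrocytes also carry, measured 8.33, 8.58 and 8.56 in controls and 8.62, 8.86 and 9.04 in ZnR mice. All ZnR mice lay above all controls, with a difference of 0.35 ± 0.13 (95% interval 0.047 to 0.65; limma adjusted p = 0.229). In the same arrays the 9 astrocyte markers, all measured, were fitted higher with a median of 0.13, and Gfap passed (0.79 ± 0.10, limma adjusted p = 0.0214, with a difference of 0.74 and adjusted p = 0.131 without the low-18S pair). The Gfap call was lost in 5 of the 6 fits without 1 mouse, with differences from 0.72 to 0.87. The dimmer Gfap probe set 1426508_at gave 0.69 ± 0.10 in all mice (limma adjusted p = 0.0304). The mean level of the 9 markers ranged from 10.28 to 10.39 in controls and from 10.57 to 10.62 in ZnR mice. Their part in the Mertk value was not tested. Cd53, a tetraspanin gene of leukocytes, measured 6.23, 6.22 and 6.14 in controls and 6.05, 5.95 and 5.75 in ZnR mice. All ZnR mice lay below all controls, with a difference of -0.28 ± 0.10 (95% interval -0.51 to -0.042; limma adjusted p = 0.221), and neither gene passed.

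Tyrobp measured 6.60, 6.43 and 6.70 in controls and 6.99, 6.71 and 6.42 in ZnR mice. ZnR mouse 3 was the highest, ZnR mouse 11 lay with the lowest control, and the difference was 0.13 ± 0.15 (95% interval -0.23 to 0.48; limma adjusted p = 0.721). Without ZnR mouse 3 it was -0.011. The Fc receptor genes Fcer1g (-0.17 ± 0.18) and Fcgr3 (-0.072 ± 0.10), the integrin subunit gene Itgb2 (0.011 ± 0.11) and Ptprc, which encodes the leukocyte phosphatase CD45 (0.12 ± 0.13), did not pass. Neither did Csf3r, the granulocyte colony stimulating factor receptor gene (0.12 ± 0.11), or Ly86, a partner of a Toll-like receptor relative (0.053 ± 0.088). Laptm5, a lysosomal membrane protein gene of immune cells, had 4 probe sets tested, with differences of -0.082, 0.045, -0.043 and 0.0055. Over this role 8 probe sets were fitted higher and 5 lower, with adjusted p from 0.221 to 0.988.

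Of the transcription factors, Irf8, which directs microglial development and activation, measured 3.95, 4.01 and 4.24 in controls and 4.44, 4.35 and 3.93 in ZnR mice, close to the level filter. ZnR mice 3 and 7 were the highest and ZnR mouse 11 the lowest, and the difference was 0.17 ± 0.15 (95% interval -0.18 to 0.53; limma adjusted p = 0.616). Spi1 stayed under the filter on every array, with 3.71, 3.51 and 3.55 in controls and 3.53, 3.45 and 3.77 in ZnR mice.

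In each of the 5 phagosome, lysosome and cytoskeleton genes the diets overlapped, as they did in all but 27.7% of the 11749 genes tested. Ctss, a lysosomal protease gene, had the narrowest range over mice of these probe sets, with 9.46, 9.39 and 9.56 in controls and 9.44, 9.39 and 9.53 in ZnR mice and a difference of -0.019 ± 0.089 (95% interval -0.23 to 0.19; limma adjusted p = 0.944). Aif1, which encodes the calcium-binding microglial marker IBA1, measured 5.71, 5.36 and 5.46 against 5.58, 5.33 and 5.28, with a difference of -0.11 ± 0.13 (95% interval -0.40 to 0.18; limma adjusted p = 0.71), and -0.011 without control mouse 1. Lyz2, the lysozyme gene of myeloid cells, measured 5.20, 5.04 and 5.40 against 4.88, 4.91 and 5.29. ZnR mice 3 and 7 were the lowest and ZnR mouse 11 lay among the controls, and the difference was -0.18 ± 0.14 (limma adjusted p = 0.572).

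Of the 38 intervals, the widest belonged to Cd68, a lysosomal glycoprotein gene used as a sign of phagocytic activity. It measured 5.39, 5.39 and 4.81 in controls and 5.82, 5.14 and 4.86 in ZnR mice, a range of 1.01 over the 6 mice. ZnR mouse 3 stood highest, and the other mice of both diets overlapped. The difference of 0.08 ± 0.26 therefore allows values from -0.53 to 0.69 (limma adjusted p = 0.918). Mpeg1, a pore-forming protein gene of macrophages, gave 0.12 ± 0.12 at a level near the filter.

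In all, 6 member genes had no probe set past the level filter. Trem2, the lipid-sensing receptor that signals through TYROBP, measured 3.88, 3.95 and 3.75 in controls and 4.01, 3.92 and 3.83 in ZnR mice with its brighter probe set, and its other one averaged 2.91 and 2.99. Itgam, which encodes the CD11b chain of the complement receptor CR3, measured 3.90, 3.70 and 3.76 against 3.81, 3.43 and 3.56. The endotoxin co-receptor gene Cd14 averaged 3.73 and 3.78, the costimulatory gene Cd86 3.11 and 3.27, and the fructose transporter gene Slc2a5 3.21 and 3.28. With no filter, the 13 member probe sets at this low level differed by -0.19 to 0.16, with limma adjusted p of at least 0.573. Values this low are compressed by the background correction, so a change of these genes could go unseen.

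In 3 of 4 lists of other genes of these pathways, which hold no member, no gene passed. Of 40 other microglia-enriched genes, 35 were on the array and 15 were tested, 1 probe set per gene. None passed limma (3 at an unadjusted p under 0.05), where 1.92% of the 11749 genes tested did, and their median was 0.05, against 0.03 over all genes. Over all 25381 probe sets kept, 17% had an unadjusted limma p under 0.05. The count here and those below are of genes, for which that share was not computed. Adjusted calls were 1.92% of genes against 1.47% of probe sets, so the 17% is not a like share. Rgs10, a G protein regulator gene, measured 0.57 ± 0.12 (limma adjusted p = 0.0658), and Coro1a, an actin regulator gene that neurons express too, measured -0.32 ± 0.076 (0.0941). The dimmer Coro1a probe set 1455269_a_at gave -0.41 ± 0.083 (limma adjusted p = 0.0625). Fyb, an adaptor gene, measured -0.27 ± 0.10. Of 13 activated microglia genes tested out of 30 listed, none passed (3 at an unadjusted p under 0.05) and the median was 0.02, with Lgals3 at 0.53 ± 0.16, Cd9 at 0.48 ± 0.13 and B2m at -0.33 ± 0.10. Of 17 ligands and partners of the member receptors tested out of 24, none passed (2 at an unadjusted p under 0.05) and the median was 0.05. In that list Il34, a neuronal ligand of CSF1R, measured -0.31 ± 0.11, Tgfb2 0.29 ± 0.12 and Pros1, a ligand of MERTK, 0.34 ± 0.15.

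Masp1, a protease gene of the lectin branch of complement, fell and was the 1 of 8 tested genes, out of 22 listed, of the other complement genes to pass. It measured 6.15, 6.01 and 5.92 in controls and 5.38, 5.09 and 5.33 in ZnR mice with probe set 1455346_at, all ZnR mice below all controls, a difference of -0.76 ± 0.11 (limma adjusted p = 0.0292). Its other tested probe sets gave -0.29 ± 0.12 and -0.015 ± 0.083 (limma adjusted p = 0.283 and 0.956), both at levels near the filter. The call was lost in each of the 6 fits without 1 mouse, with differences from -0.82 to -0.67 and adjusted p from 0.0569 (control mouse 9 left out) to 0.116 (control mouse 5 left out). It was also lost without the low-18S pair (adjusted p = 0.133). The complement regulator gene Cr1l (0.29 ± 0.13) and the protease gene Masp2 (0.25 ± 0.13) did not pass, and the list median was 0.03.

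Marker lists of other cell types were read in the same arrays. The 8 striatal projection neuron genes tested averaged 10.63 to 11.07 in control mice and 11.29 to 11.51 in ZnR mice, well above the level filter. Whether the samples held tissue other than the labelled one was not tested. Of the 35 member genes, 29 had a probe set past the level filter. Of other immune and blood cells, 0 of 10 border macrophage genes, 0 of 11 monocyte and neutrophil genes, 0 of 3 red blood cell genes and 1 of 12 lymphocyte genes on the array (Cd4, 0.24 ± 0.11) passed the level filter. Genes of other cell types passed in the same arrays. Of the excitatory neuron genes, 5 of 7 fell (Nrn1, Slc17a7, Neurod6, Neurod2 and Tbr1; median -0.84), while 2 of 7 choroid plexus and ependyma genes rose (Clic6 and Tmem212; median 1.01) and 2 of 8 striatal projection neuron genes rose (Drd2 and Gpr6; median 0.53). Medians were 0.37 for oligodendrocytes, 0.35 for their precursors, 0.13 for endothelial and mural cells, 0.88 for leptomeningeal fibroblasts and -0.0084 for interneurons, of which 1 of 8 genes, Vip, fell. With Gfap these are 11 genes, of which 0 passed without the low-18S pair, 0 without control mouse 5, and 1 to 4 without any other single mouse. Over these 7 fits, in which 1 to 113 probe sets of the whole array passed, all 11 kept their direction, at 0.709 to 1.19 times the difference in all mice. Their part in the members' values was not tested.

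The mean over the 29 tested member genes, each centred on its mean over the 6 mice, differed by -0.02 ± 0.03 (SE over mice). It was 0.03, -0.03 and 0.02 in control mice 1, 5 and 9 and 0.04, -0.01 and -0.05 in ZnR mice 3, 7 and 11, so the diets overlapped and the farthest mouse lay 0.053 from the mean. Without ZnR mouse 11 the difference was 0.0061. For the 15 other microglia-enriched genes the same measure was -0.04, -0.03 and -0.02 in controls and -0.0042, 0.05 and 0.04 in ZnR mice. There all ZnR mice lay above all controls, with a difference of 0.06 ± 0.02, opposite in sign to that of the surface and identity genes. This was not a shift of the whole list, since 8 of the 15 genes were fitted higher and 7 lower. Rgs10 had the largest difference (0.57), and whether the diets separate without it was not tested. The same measure differed by -0.80 ± 0.06 for the 7 excitatory neuron genes.

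**Figure D4:**
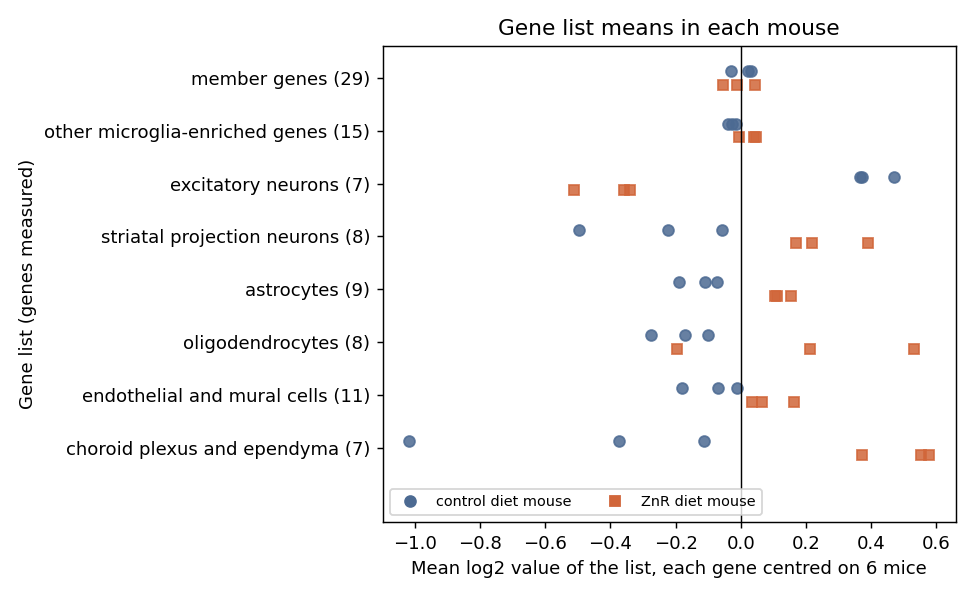
Mean log2 value of each gene list in each mouse (x axis, each gene centred on its mean over the 6 mice), with the number of genes tested in brackets; circles are control mice and squares ZnR mice. Member genes lie between -0.05 and 0.04 in every mouse, while the excitatory neuron genes lie between 0.37 and 0.47 in controls and between -0.51 and -0.34 in ZnR mice.

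Within the low-18S pair the mean of the member genes differed by 0.01, and between the other mice by -0.03. Mertk differed by 0.29 within the pair and 0.38 between the others, Cd53 by -0.18 and -0.33, and Tgfbr1 by -0.30 and -0.23. The P2ry12 difference was 0.12 within the pair and -0.30 between the others, and that of Irf8 was 0.49 and 0.01. Tyrobp differed by 0.39 and 0.000468, so nearly all of its difference came from the pair. With the pair as a block the smallest adjusted p of a member was 0.0987, in Mertk.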

How the data were processed

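Total RNA, 500 ng per mouse, was labelled with the Affymetrix 3′ IVT Express kit, per the labels' protocols. The authors deposited unpooled log2 values for each mouse and probe set, made with R 2.15.1 and GCRMA 2.28.0, per the submitters' processing notes. GCRMA corrects background by probe sequence and equalises quantiles between arrays, so a change of total RNA cannot be seen. Genes were named from the platform annotation, and all 35 members matched a reference gene table by Entrez identifier. The 64 control probe sets and those with the log2 value over 4 on fewer than 3 arrays were left out. The others were fitted in limma 3.58.1 (R 4.3.3, lmFit and eBayes, 2-sided, no covariate), with Benjamini-Hochberg adjustment over all 25381. Errors are moderated standard errors, and intervals cover 95% for a single probe set. The fit was tested on simulated data.

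Lists hold 1 probe set per gene, that with the highest mean. All members are named, with values in every mouse for those past the threshold, the 10 with the lowest p and 14 genes chosen by name (3 of which had no probe set tested); other pathway lists give up to 3 genes by p, and cell type lists the genes past the threshold. Members, lists and alternatives were chosen with earlier results of these data known. Alternatives covered the filter, normalization, variance prior, array weights, unit counted, the low-18S pair and each mouse left out. Plots used Python 3.11.15 and matplotlib 3.10.9.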

Additional observations from a re-analysis of the deposited data

How the results depend on the processing

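No member probe set passed the threshold in any of the 15 alternatives (limma; 0 to 5 at an unadjusted p under 0.05), where the smallest member adjusted p ranged from 0.0614 (array weights, in Cd53) to 0.343 (without control mouse 5). No paired analysis was possible because the mouse numbers differ between the diets. The count of all probe sets called was 373, 916 with an intensity trend in the variance prior, 2003 with array weights, which gave control mouse 5 a weight of 6.57 against 0.512 to 0.987 for the others, and 1 without the low-18S pair. Leaving out 1 mouse gave 1 to 113. Fits with fewer arrays also have less power, so these counts do not show what each mouse contributed. Member probe sets whose diets did not overlap numbered 4, 13 of 36 without the low-18S pair (36.1%, against 44.4% of all probe sets kept), and 5 to 9 without 1 mouse (13.2% to 24.3%, against 30.6% to 35.8%), since fewer mice overlap less often. Of the 18 member probe sets followed through each setting that kept them, array weights turned the direction of Olfml3 (0.011), Aif1 (0.0011) and Ctss (0.056). Leaving out 1 mouse turned it for 17 of the 38 member probe sets, whose differences in all mice were at most 0.13 in size; among them were Tyrobp (range -0.011 to 0.27), C1qc (-0.098 to 0.041), Ctss (-0.061 to 0.027) and Cd68 (-0.19 to 0.29). None of these passed. Rgs10 passed with the stricter filter, the trend, array weights and 1 probe set per gene (adjusted p down to 0.0192), Coro1a with the last 3 (0.0193), B2m and Cd9 with the trend (0.0454 and 0.0461), and the astrocyte gene Aldh1l1 with array weights (0.0272). With 3 mice per diet, the median standard error of a member was 0.12 log2 units, and genes near the level filter are compressed.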
